A study of Saccharomyces cerevisiae with 8 samples.

Results

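XUT1511 and XUT0567 are a pair of long noncoding RNAs of budding yeast that run antisense to the cell-wall genes GAS2 and MNN4. They belong to the Xrn1-sensitive unstable transcripts (XUTs), RNAs that accumulate when the cytoplasmic exonuclease Xrn1 is missing. Their open reading frames (ORFs) were taken by XUT name from a table of ORFs with ribosome footprints, which gave 36 ORFs, 25 in XUT1511 and 11 in XUT0567, of 13941 ORFs in 1637 XUTs. The pair was selected on earlier results from the same counts and phase scores, so all values of these ORFs are descriptions, without a test.

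Ribosome profiling, which sequences the RNA stretches that ribosomes shield from nuclease, was done on Saccharomyces cerevisiae BY4741, mating type MATa, with the markers his3Δ1, leu2Δ0, met15Δ0 and ura3Δ0 in every group. Wild type (WT) carried no further change, and the mutant carried the allele upf1*::kanMX4. Cells of each genotype were harvested from YPD cultures (30 °C, OD600 0.5), either untreated or after 15 min with cycloheximide (CHX), which stalls elongating ribosomes. The labels list 8 libraries, 2 biological replicates for each of the 4 conditions. The table gives 1 merged value per condition, which leaves neither replicate errors nor p-values for differences between conditions. Where 4 values follow each other they stand in the order WT, WT + CHX, upf1, upf1 + CHX. Intervals are 95% exact intervals and cover counting error only. The table lists ORFs of XUTs only, so the level of UPF1 itself was not analysed here.

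As background, Upf1 is an RNA helicase of nonsense-mediated decay, the pathway that removes RNAs on which translation ends early, and antisense noncoding RNAs with short ORFs can be among its targets. GAS2 encodes a glucanosyltransferase that remodels beta-glucan and acts with Gas4 in building the spore wall, so its product is used in sporulation and not in growing cells. MNN4 encodes a putative positive regulator of the mannosylphosphate transferase Mnn6, and its product is needed to add mannosylphosphate to the mannan chains of cell-wall proteins. A long terminal repeat (LTR) of the retrotransposon Ty1 holds the promoter of that element, and many solo copies lie across the genome.

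On the R64 genome the listed ORFs of XUT1511 ran on the minus strand of chromosome 12 from 818449 down to 815958. The first ORF began upstream of an annotated Ty1 LTR on the same strand (818073 to 818403), and its last 8 nt lay in that LTR. ORF 2 lay inside ORF 1, ORFs 3 to 8 lay inside the LTR, and ORF 9 lay between the LTR and GAS2. ORFs 10 to 24 were opposite the GAS2 coding sequence (CDS, 816094 to 817761, plus strand) and ORF 25 was partly opposite YLR342W-A. Beyond the 5′ end of the listed ORFs, the arginine tRNA gene TRR4 began after a gap of 159 nt. The 11 ORFs of XUT0567 ran on the plus strand of chromosome 11 from 66559 to 67572. ORFs 1 to 9 lay opposite the MNN4 CDS (63930 to 67466, minus strand), and ORFs 10 and 11 lay beyond its start codon. No ORF of either transcript overlapped a CDS on its own strand.

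The sequences of the ORFs with at least 10 reads in some condition, 8 in XUT1511 and 2 in XUT0567, are shown because they are the ones whose counts and scores are described singly below. They are the reference sequence of R64 on the strand of the XUT, 5′ to 3′, with the start and stop codons in capitals, and coordinates end before the stop codon.
XUT1511 ORF 1 (chr12:818396-818449): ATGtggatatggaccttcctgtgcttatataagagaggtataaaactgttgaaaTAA
XUT1511 ORF 2 (chr12:818421-818441): ATGgaccttcctgtgcttataTAA
XUT1511 ORF 3 (chr12:818333-818368): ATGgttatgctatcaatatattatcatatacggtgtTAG
XUT1511 ORF 4 (chr12:818262-818321): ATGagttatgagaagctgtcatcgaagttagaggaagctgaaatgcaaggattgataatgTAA
XUT1511 ORF 5 (chr12:818294-818314): ATGagaagctgtcatcgaagtTAG
XUT1511 ORF 6 (chr12:818225-818251): ATGaaacatataaaacggaatgaagaaTAA
XUT1511 ORF 7 (chr12:818206-818232): ATGaagaataatcgtgatattagtaaaTAG
XUT1511 ORF 8 (chr12:818093-818113): ATGgaatcccaacaattatctTAA
XUT0567 ORF 1 (chr11:66559-66600): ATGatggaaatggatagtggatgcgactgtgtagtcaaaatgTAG
XUT0567 ORF 2 (chr11:66579-66680): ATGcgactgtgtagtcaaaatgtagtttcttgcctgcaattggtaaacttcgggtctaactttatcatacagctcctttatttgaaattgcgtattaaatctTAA

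Several of these ORFs share bases in different frames, so a footprint can be counted for more than 1 of them. ORF 2 of XUT1511 starts 8 nt after ORF 1 and lies whole within it. ORF 5 lies whole within ORF 4, and ORFs 6 and 7 share 8 nt. In XUT0567, ORF 2 starts 20 nt after ORF 1 and shares 22 nt with it. Of the listed ORFs, 17 of 25 in XUT1511 and 7 of 11 in XUT0567 overlapped another. Sums per transcript were therefore taken over non-overlapping ORFs, chosen in order of pooled count, 16 in XUT1511 and 8 in XUT0567.

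Footprints of XUT1511 were concentrated in the first 8 ORFs, at the LTR end and away from GAS2. ORF 3, of 36 nt and inside the LTR, held the most reads in every condition, with 45, 144, 75 and 127. Per length this was 1.25, 4.0, 2.08 and 3.53 reads per nt. These were the highest densities among the 25 ORFs in each of the 4 conditions. ORF 1, of 54 nt, held 9, 63, 19 and 93 reads, and the nested ORF 2, of 21 nt, held 4, 41, 12 and 72. Both had their fewest raw reads in WT and their most in upf1 + CHX, where ORF 2 reached 3.43 reads per nt, close to ORF 3. The reads in all XUT ORFs were likewise fewest in WT (4468) and most in upf1 + CHX (33542), so these raw counts give no order of levels. ORF 4, of 60 nt, held 7, 77, 20 and 69 reads, and ORF 5 within it 5, 27, 6 and 26. Both had higher raw counts with CHX than without it in either genotype, as the table as a whole had. ORF 6 held 20, 68, 24 and 38 reads and ORF 7 held 10, 38, 18 and 15. ORF 7 was the only one of the 8 with fewer raw reads in upf1 + CHX than in upf1. ORF 8, at the far end of the LTR, held 1, 12, 3 and 17 reads.

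**Figure D1:**
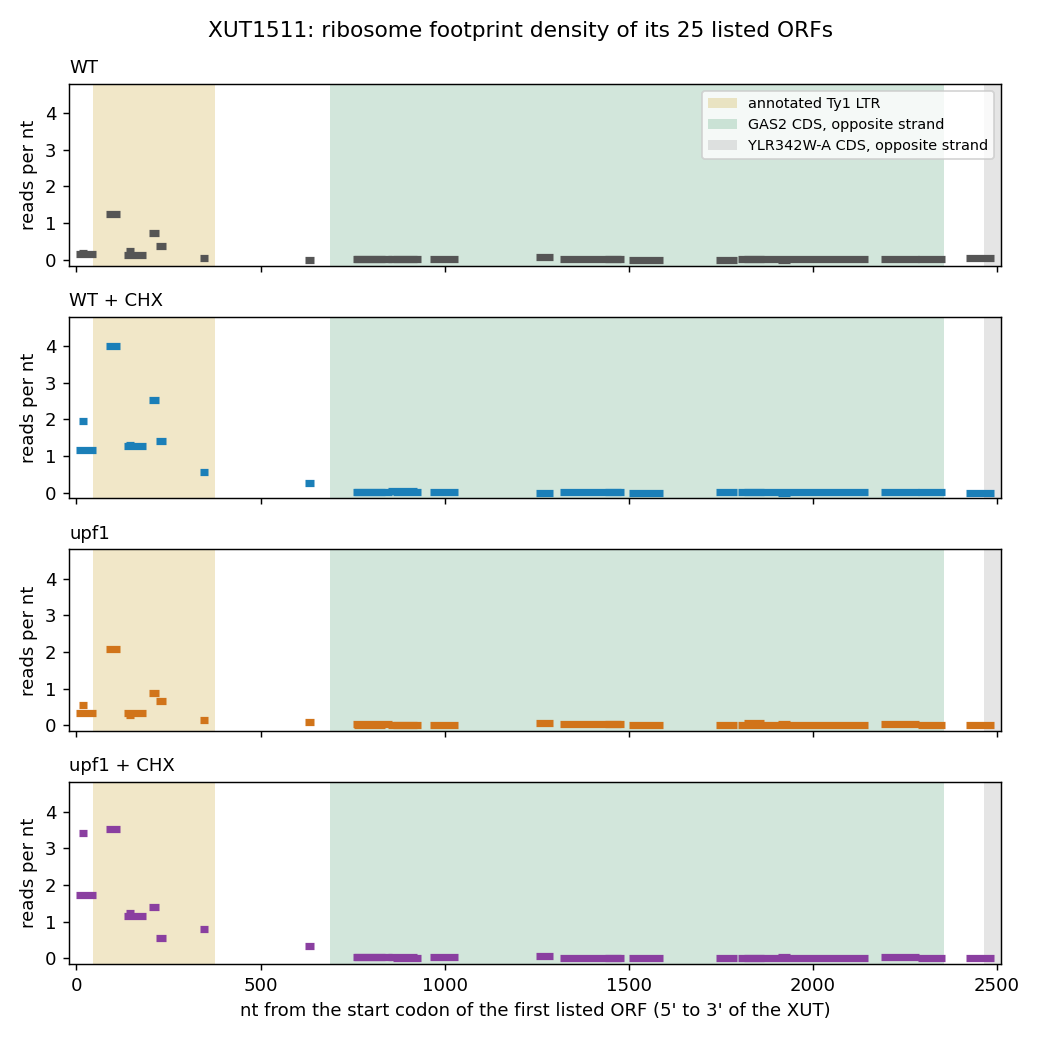
Reads per nt (vertical axis) of each of the 25 listed ORFs of XUT1511, drawn as a horizontal line over its extent in nt from the first start codon (horizontal axis), with 1 panel per condition and the LTR and the opposite CDSs shaded; heights are raw and depth differs between panels. ORF 3, inside the LTR, is the highest line in each panel, at 1.25 and 2.08 in untreated WT and upf1 and 4.0 and 3.53 with CHX, and the lines opposite GAS2 lie near 0.

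The other 17 ORFs of XUT1511, all with at least 1 read over the 4 conditions, held 0 to 8 reads each per condition. Among the non-overlapping ORFs, the 11 downstream of the LTR covered 1173 nt and held 17, 21, 29 and 30 reads. That was 0.0145, 0.0179, 0.0247 and 0.0256 reads per nt. The 4 ORFs within the LTR covered 144 nt and held 73, 301, 122 and 251 reads, or 0.507, 2.09, 0.847 and 1.74 reads per nt. The ORFs downstream of the LTR were thus read at a small fraction of the density within the LTR in all 4 conditions. They lie opposite GAS2 except for ORFs 9 and 25.

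Because LTR copies can share reads, the repeat content of each ORF was measured as the share of 28-nt windows, placed with their base 13 in the ORF, that occur once in the R64 genome on either strand. All windows of ORFs 1 and 2 were unique, as were all windows of ORFs 9 to 25. Within the LTR, 63.9% of windows were unique in ORF 3, 25% in ORF 4, 38.1% in ORF 5, 70.4% in ORF 6, 63.0% in ORF 7 and 66.7% in ORF 8. The most repeated window occurred 57 times for ORF 3 and 2 times for ORFs 7 and 8. The whole of ORF 5 with its stop codon occurred 35 times in the genome, 33 of them in annotated LTRs. The same sequence is listed as an ORF of XUT1014 and of XUT0264, and both entries held 0 reads in all 4 conditions, while ORF 5 of XUT1511 held 5, 27, 6 and 26. How the authors treated reads that map to several places is not given in the sources used here, and the part of repeated sequence in the counts of ORFs 3 to 8 was not tested.

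Relative to ORF 1, ORFs 3 and 6 of XUT1511 had fewer reads in cells given CHX, while ORF 4 did not move the same way in both genotypes. For each read of ORF 1, ORF 3 had 5.0 in untreated WT (95% interval 2.41 to 11.6) and 2.29 with CHX (1.69 to 3.12). In upf1 it had 3.95 untreated (2.36 to 6.92) and 1.37 with CHX (1.04 to 1.80). In upf1 the intervals without and with CHX did not overlap, and in WT they did. The ratio of ORF 6 to ORF 1 went the same way, with 2.22 (0.967 to 5.54) and 1.08 (0.755 to 1.55) without and with CHX for WT, and 1.26 (0.663 to 2.44) and 0.409 (0.272 to 0.602) for upf1. It was likewise lower with CHX in both genotypes, with intervals that overlapped in WT and not in upf1. The share of the transcript's reads in ORF 1 was 9.09% (4.24 to 16.6) and 11.2% (6.86 to 16.9) in untreated WT and upf1, and 16.4% (12.8 to 20.4) and 24.9% (20.6 to 29.6) with CHX. The ratio of ORF 4 to ORF 1 was 0.778 (0.246 to 2.35) and 1.22 (0.865 to 1.73) without and with CHX for WT, and 1.05 (0.533 to 2.08) and 0.742 (0.535 to 1.02) for upf1, with intervals that overlapped in both. These ratios within a condition do not depend on library depth. No ratio was taken for ORF 8, the remaining non-overlapping ORF inside the LTR. Without and with CHX it held 1 and 12 reads in WT, beside 9 and 63 of ORF 1. In upf1 it held 3 and 17, beside 19 and 93. Its reads thus did not fall relative to ORF 1, on very few untreated reads.

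The downstream share of XUT1511 was lower with CHX. It was 17.2% of reads in WT (10.3 to 26.1) and 17.1% in upf1 (11.7 to 23.6), against 5.45% in WT + CHX (3.41 to 8.22) and 8.02% in upf1 + CHX (5.48 to 11.3). The intervals without and with CHX did not overlap in either genotype. Over XUTs with at least 10 reads in both conditions and an ORF starting more than 400 nt downstream, a limit set after the values were seen, the share of reads beyond that limit was lower with CHX in 56.6% of 53 XUTs in WT and in 58.4% of 332 in upf1. The median share beyond it over these XUTs was 17.9% with and 35% without CHX in WT, and 16.7% and 22.4% in upf1. The direction in XUT1511 was thus common among the XUTs compared.

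The phase score, a number from 0 to 1 that the authors deposited for each ORF and condition, rises as reads keep to 1 position of the codon. Its formula is not given in the sources used here. An ORF with 1 read scored 1 in 88.4 to 91.3% of cases, depending on the condition, so scores are described at a minimum of 10 reads, and an ORF was called at a score of at least 0.32. At that depth 2 of 3 ORFs of XUT1511 were called in WT, beside 70.7% of all ORFs. In WT + CHX 8 of 8 were called, beside 64.2%, in upf1 6 of 6, beside 62.9%, and in upf1 + CHX 7 of 8, beside 72.6%. The transcript was chosen with these calls known, so nothing is read from their share. Just inside the threshold was ORF 7 in WT, with 0.339 on 10 reads, and just outside was ORF 6 in WT, with 0.305 on 20 reads.

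Within XUT1511 the scores differed between ORFs that share the same bases. The nested ORF 2 scored 0.754 and 0.733 in WT and upf1 given CHX and 0.800 in untreated upf1, above at least 90.9% of all ORFs with 10 reads in each of these conditions. ORF 1, which contains it, scored 0.348, 0.252 and 0.682 there, and was the 1 ORF not called in upf1 + CHX, on 93 reads. ORF 5 scored 0.707 in WT + CHX and 0.997 in upf1 + CHX, on 27 and 26 reads, the latter above 98.8% of ORFs at that depth. ORF 4 around it scored 0.550 and 0.630 in the same conditions. In both nested pairs the shorter ORF thus had the higher score in WT + CHX and in upf1 + CHX. The shorter ORFs have 7 codons each, against 18 in ORF 1 and 20 in ORF 4. The ranks are among ORFs of all lengths, and scores at matched length were not compared. ORF 3, with the most reads, scored 0.432, 0.576, 0.398 and 0.351. ORF 6 scored 0.305, 0.430, 0.642 and 0.485, and ORF 7 scored 0.339, 0.364, 0.793 and 0.364. Both of these scored highest in untreated upf1, on 24 and 18 reads. ORF 8 reached 10 reads only with CHX, where it scored 0.577 in WT and 0.667 in upf1. The median over the transcript's ORFs at 10 reads was 0.339, 0.563, 0.665 and 0.558. Over all ORFs at that depth it was 0.420, 0.385, 0.378 and 0.434.

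**Figure D2:**
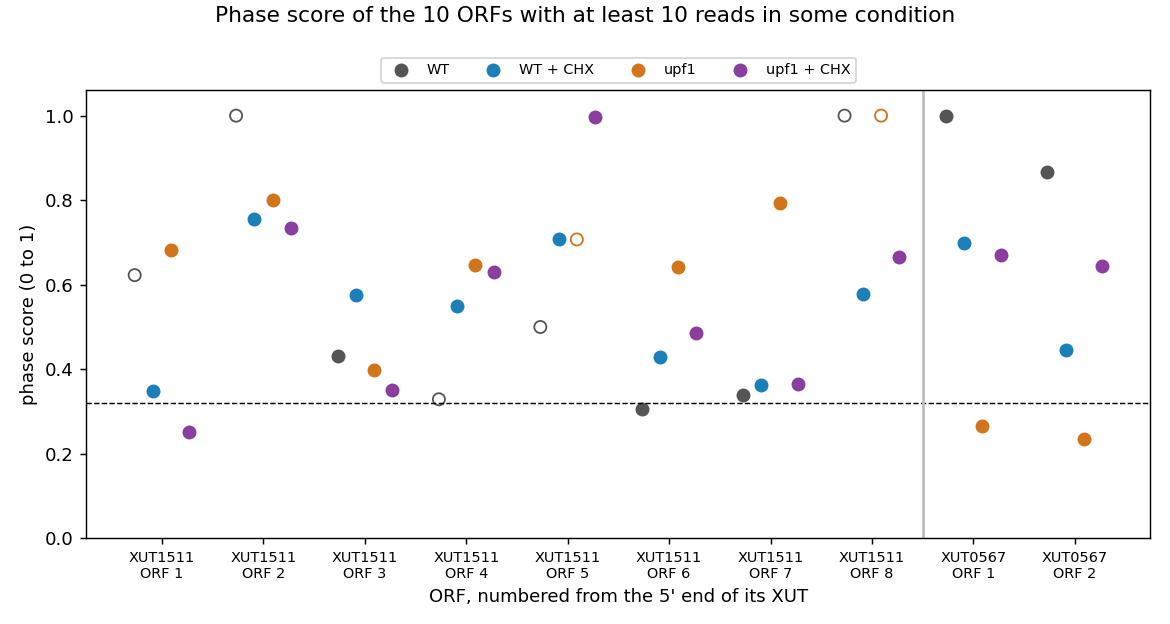
Phase score (vertical axis, 0 to 1) of the 10 ORFs with at least 10 reads in some condition (horizontal axis), coloured by condition; filled points rest on at least 10 reads, open points on fewer, and the dashed line marks 0.32. ORFs 1 and 2 of XUT0567 lie under the line in upf1 alone, at 0.267 and 0.234, and of XUT1511 ORF 1 lies under it in upf1 + CHX, at 0.252, and ORF 6 in WT, at 0.305.

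XUT0567 carried its footprints in its first 2 ORFs, opposite MNN4. ORF 1, of 42 nt, held 10, 19, 46 and 33 reads. ORF 2, of 102 nt, held 11, 15, 43 and 11. The counts of the pair were close to each other in 3 conditions, but the ORFs share 22 nt, so a footprint can enter both counts. The intervals of the ratios below take the counts as separate reads and are therefore approximate. In upf1 + CHX ORF 1 had 3.0 times the reads of ORF 2 (95% interval 1.48 to 6.58), against 0.909 (0.346 to 2.36) and 1.07 (0.690 to 1.66) times in untreated WT and upf1, and 1.27 times in WT + CHX (0.610 to 2.68). The upf1 + CHX interval overlapped that of each other condition, and the difference was not tested. All 28-nt windows of XUT0567 were unique in the genome. The other 9 ORFs held 0 to 6 reads each per condition, and ORFs 10 and 11, beyond MNN4, held 0 reads in every condition.

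Downstream reads of XUT0567 were seen mainly in untreated upf1. The 7 non-overlapping ORFs after the first held 2, 2, 16 and 3 reads. As a share of the transcript's reads this was 16.7% (2.09 to 48.4), 9.52% (1.17 to 30.4), 25.8% (15.5 to 38.5) and 8.33% (1.75 to 22.5). The 4 intervals overlapped, those of upf1 and upf1 + CHX only between 15.5 and 22.5%, and the differences in this share were not tested. The upf1 reads were spread over the ORFs: ORF 4 held 6, ORF 8 held 4 and the other 5 held at most 2 each, and ORF 5, which overlaps ORF 4 and was not in the sum, held 4.

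**Figure D3:**
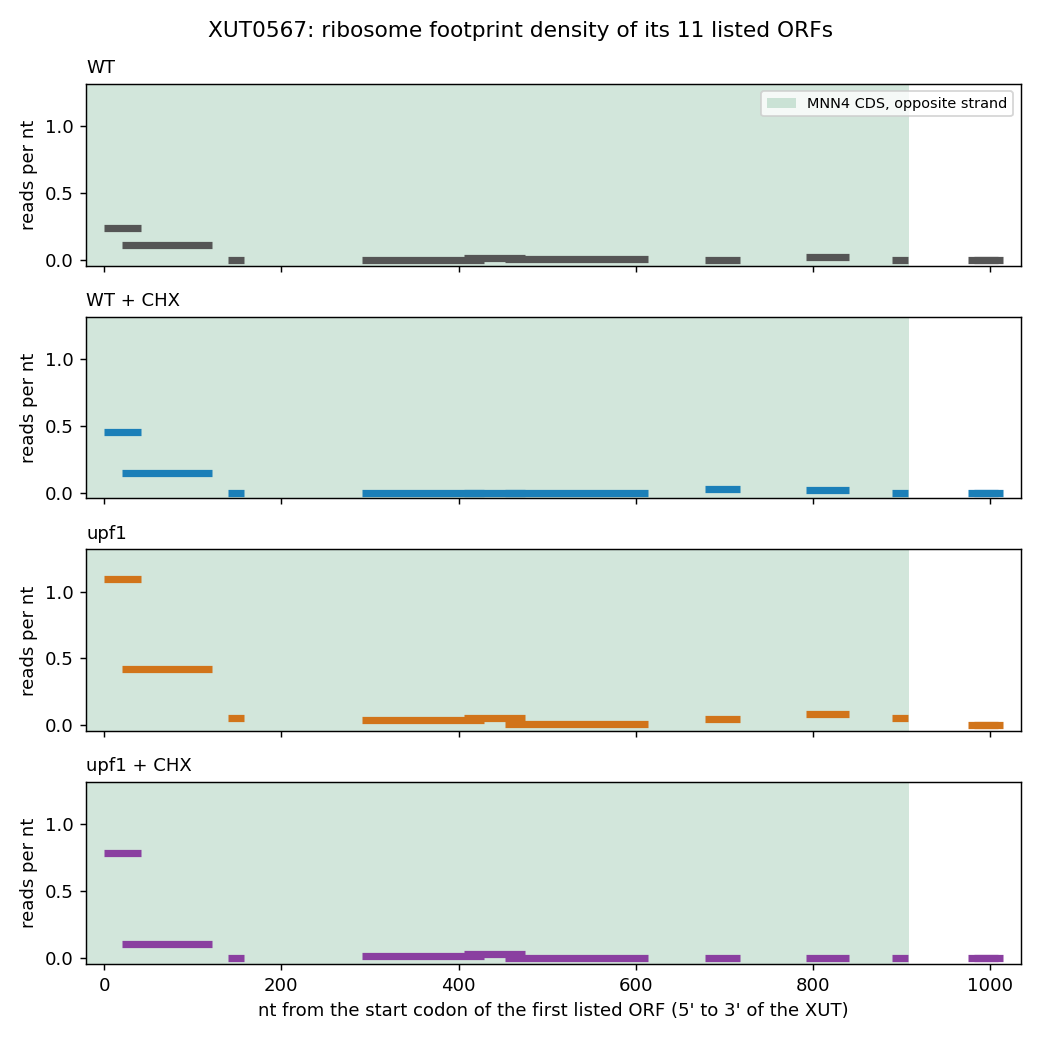
Reads per nt (vertical axis) of each of the 11 listed ORFs of XUT0567, drawn as a horizontal line over its extent in nt from the first start codon (horizontal axis), with 1 panel per condition and the opposite MNN4 CDS shaded; heights are raw and depth differs between panels. ORF 1 is the highest line in each panel, from 0.238 reads per nt in WT to 1.10 in upf1, and the ORFs past ORF 2 have visible density mainly in upf1.

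Both leading ORFs of XUT0567 had low scores in untreated upf1 and higher ones elsewhere. ORF 1 scored 1, 0.699, 0.267 and 0.670. ORF 2 scored 0.866, 0.446, 0.234 and 0.644. The pair were called in WT, WT + CHX and upf1 + CHX, 2 of 2 each, and 0 of 2 were called in upf1, although that condition had the most reads of the pair. Over all ORFs with 10 reads, 70.7%, 64.2%, 62.9% and 72.6% were called, so nothing is read from the calls of 2 ORFs. In upf1, 23.8% of all ORFs with 10 reads scored below ORF 1 and 18.7% below ORF 2. In WT these were 98.3% and 96.6%, on only 10 and 11 reads. Over all ORFs with 10 to 19 reads in WT the median score was 0.462, and over those with 20 to 49 reads in upf1 it was 0.349. These scores helped to choose the transcript, and the ORFs share 22 nt, so they are not independent.

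Levels were compared between conditions as the share of reads in all non-overlapping XUT ORFs, which numbered 4468, 27360, 20012 and 33542 reads. These sums are not library depths. The highest count of any XUT was 1124, 1642, 2143 and 1801 reads, so a single XUT took its largest part of the sum in WT. XUT1511 held 99, 385, 170 and 374 reads, or 2.22% (1.80 to 2.69), 1.41% (1.27 to 1.55), 0.849% (0.727 to 0.987) and 1.12% (1.01 to 1.23). By reads it ranked 3, 3, 11 and 2 among the XUTs. The order of its levels was WT, WT + CHX, upf1 + CHX and upf1, and neighbours in that order had intervals that did not overlap. XUT0567 held 12, 21, 62 and 36 reads, or 0.269% (0.139 to 0.469), 0.0768% (0.0475 to 0.117), 0.310% (0.238 to 0.397) and 0.107% (0.0752 to 0.149). Its order was upf1, WT, upf1 + CHX and WT + CHX. Upf1 and WT did not differ beyond counting error, nor did upf1 + CHX and WT + CHX, while WT and upf1 + CHX overlapped narrowly. Fewer transcripts and fewer ribosomes per transcript cannot be told apart here.

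**Figure D4:**
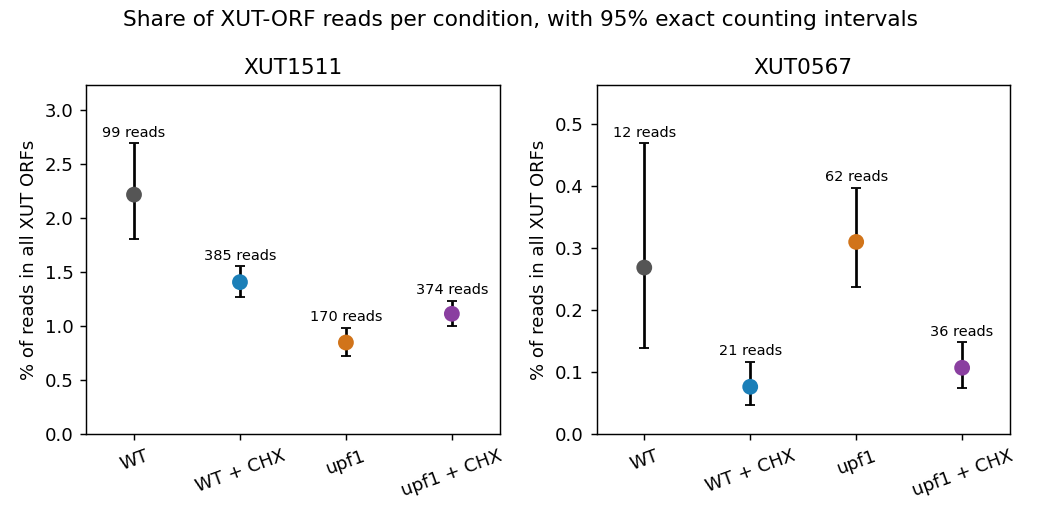
Share of the reads in all XUT ORFs (vertical axis, percent) held by XUT1511 (left) and XUT0567 (right) in the 4 conditions (horizontal axis), with 95% exact counting intervals and the read number above each. XUT1511 is highest in WT, at 2.22%, and lowest in upf1, at 0.849%, while both untreated values of XUT0567, 0.269% and 0.310%, lie above both CHX values.

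In untreated cells XUT1511 took a smaller share in upf1 than in WT, 0.383-fold (0.298 to 0.496, 170 and 99 reads). Of 65 XUTs with at least 10 reads in both conditions, 21.5% were at 0.5-fold or less and 12.3% at 2-fold or more, and 8 lay lower than XUT1511. The median over these XUTs was 0.926-fold. With the 2-micron plasmid left out of the totals XUT1511 was at 0.321-fold. Without the ORFs that overlap the LTR, a setting that drops ORF 1 for its last 8 nt, the value was 0.431-fold (0.249 to 0.768). XUT0567 was at 1.15-fold (0.616 to 2.35), a difference not detectable at this depth, and 0.965-fold without the 2-micron plasmid in the totals.

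XUT1511 in upf1 + CHX was at 0.792-fold of WT + CHX (0.685 to 0.916), with a median of 0.961 over 572 XUTs. Of these, 4.2% were at 0.5-fold or less and 3.67% at 2-fold or more. Without the ORFs overlapping the LTR the value of XUT1511 was 1.34-fold (0.966 to 1.86), an interval that includes 1. The lower share in upf1 was thus not kept, and a reversed direction was not shown. This setting also drops ORF 1 and lets in the nested ORF 2, with 41 reads in WT + CHX and 72 in upf1 + CHX. XUT0567 was at 1.40-fold (0.795 to 2.52), not distinguishable from 1, and at 0.669-fold when the longest ORFs were taken first, which replaces ORF 1 by ORF 2.

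CHX was accompanied by a smaller share of XUT0567 in both genotypes, which share no samples. It was 0.286-fold in WT (0.134 to 0.637, 21 and 12 reads) and 0.346-fold in upf1 (0.223 to 0.531, 36 and 62 reads). In WT 26.2% of 65 XUTs were at 0.5-fold or less and 4.62% at 2-fold or more. In upf1 10.2% of 392 XUTs were at 0.5-fold or less and 9.95% at 2-fold or more, and 12 XUTs lay lower than XUT0567. The value in WT was 0.228-fold without the 2-micron plasmid in the totals, and that in upf1 was 0.143-fold (0.0740 to 0.260) with ORF 2 in place of ORF 1. XUT1511 was at 0.635-fold with CHX in WT (0.508 to 0.800) and at 1.31-fold in upf1 (1.09 to 1.58). The WT value of XUT1511 was 0.507-fold without the plasmid in the totals and 0.479-fold without the ORFs overlapping the LTR, ORF 1 included. The untreated WT counts enter both the upf1 and the CHX comparison of WT, so those values are not independent.

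**Figure D5:**
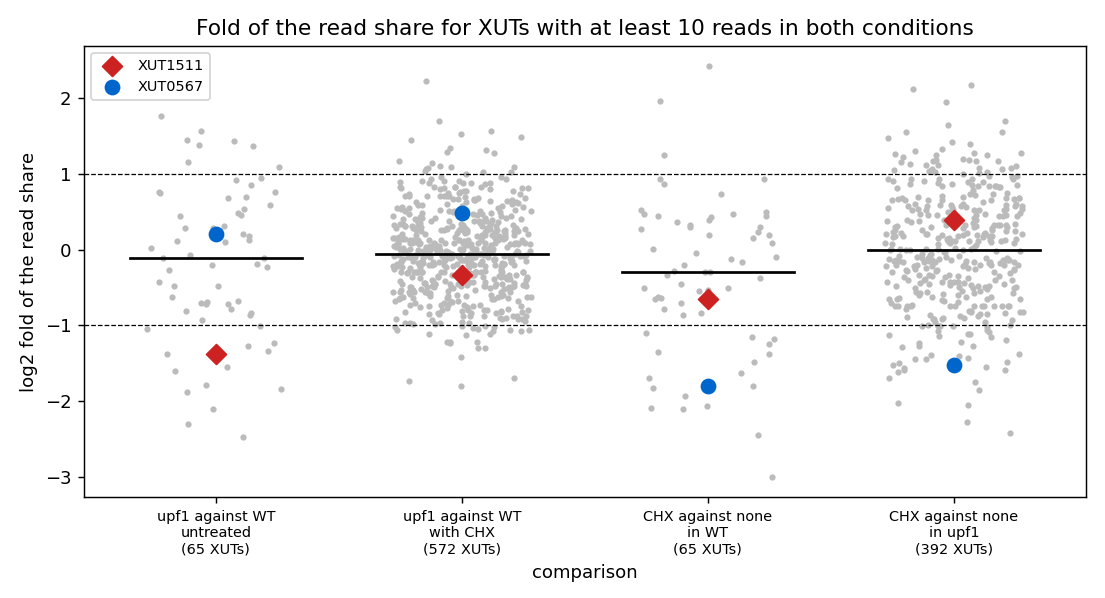
Log2 fold of the read share (vertical axis) in the 4 comparisons (horizontal axis), with grey points for XUTs with at least 10 reads in both conditions, black lines at their medians and dashed lines at 2-fold and 0.5-fold. XUT0567 (blue) lies under the lower line in both CHX comparisons, at -1.81 and -1.53, and XUT1511 (red) lies under it only for untreated upf1 against WT, at -1.38.

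Antisense XUTs of other cell-wall genes were read to very different depths. Of 99 listed genes of glucan, chitin and mannan synthesis, wall remodelling and wall proteins, 25 had an antisense XUT, and there were 29 such XUTs. Of these, 5 (17.2%) had no read in any condition and 7 (24.1%), the members included, had at least 100 in all, beside 11% and 12.8% of all 1637 XUTs. The median was 9 reads over the 4 conditions, beside 14 for all XUTs. Besides the members these 7 were XUT1308 (antisense to CHS7, needed for export of the chitin synthase Chs3), XUT1707 (SPR1, a sporulation glucanase), XUT0050 (TIP1, a cell-wall mannoprotein), XUT0655 (NCW2, a cell-wall protein) and XUT0203 (EXG2, a glucanase). XUT1308 held 9, 108, 81 and 154 reads. None of these 5 reached 10 reads in WT, so in both comparisons with untreated WT the members were the list's only 2 XUTs with enough reads. With CHX, 8 of the list's XUTs could be compared between upf1 and WT. XUT0655 was past 2-fold (2.10-fold higher in upf1 + CHX, on 54 and 21 reads) and none was at 0.5-fold or less, with a median of 1.16 beside 0.961 for all XUTs. Of all XUTs compared, 3.67% were at 2-fold or more and 4.2% at 0.5-fold or less. For CHX in upf1, 6 could be compared, and XUT0567 was the 1 past the limit, with a median of 1.08 beside 0.993 for all. Of all XUTs compared there, 9.95% were at 2-fold or more and 10.2% at 0.5-fold or less. The 8 and the 6 include both members, so nothing is read from these counts. GAS4, the partner of GAS2 in spore-wall assembly, lies opposite XUT1668, which held 0, 1, 0 and 5 reads.

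The XUTs whose shares varied most like the members over the 4 conditions were sought among 208 other XUTs with at least 100 reads in all, by the Euclidean distance between centred log2 shares. Closest to XUT1511 were XUT0602 (antisense to DYN1 and YSR3), at a distance of 0.338, XUT1156 at 0.489 and XUT0279 at 0.510, with a median of 1.79 over all. XUT0602 held 0.716%, 0.417%, 0.345% and 0.399% of reads. Closest to XUT0567 were XUT1304 (antisense to NDT80, a transcription factor of meiosis) at 0.477, XUT1438 (OSI1 and YKL070W) at 0.670 and XUT0933 (BDH2 and GDH3) at 0.681, with a median of 2.34. XUT1304 held 0.201%, 0.0621%, 0.215% and 0.116%, low with CHX in both genotypes as XUT0567 was.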

How the data were processed

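Per the submitters' processing notes, reads were handled with UMI-tools, cutadapt and HISAT2 2.2.0 on build R64. The authors deposited 1 table with a read count and a phase score per ORF and condition. The deposited counts are whole numbers that are not scaled to depth, and the deposited score runs from 0 to 1. The sources used here do not name the ORF caller, the read lengths or how replicates were merged. The RefSeq copy of R64 was used for sequences and annotation: an ATG opened, and a stop codon followed, each of the 13912 ORFs on its chromosomes. No test was run, since the table has no replicate values. Shares have exact binomial intervals and folds have exact conditional binomial intervals (scipy 1.17.1, Python 3.11.15). The fold intervals were run on simulated counts that held counting error only, the error they assume. That run cannot show how they hold with variation between replicates. Intervals of shares and of ratios between ORFs were not simulated. A fold is called at 2 or 0.5. ORFs with at least 10 reads in a condition are described singly, and for likeness 3 XUTs per member were named, with 0.5 added to each count. The alternatives were other totals, other choices among overlapping ORFs, leaving out ORFs, other read minimums and other score thresholds. The members, the gene list and the comparisons were chosen with earlier results of these data known.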

Additional observations from a re-analysis of the deposited data

Results flagged for a closer look

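The read share of XUT1511 moved in opposite directions with CHX in the genotypes. It was 0.635-fold in WT (95% counting interval 0.508 to 0.800) and 1.31-fold in upf1 (1.09 to 1.58). The median over the XUTs compared was 0.817-fold in WT, where 21 of 65 lay lower than XUT1511. In upf1 it was 0.993-fold, and 119 of 392 lay higher. The 3 XUTs named above as most like XUT1511 had folds on the same sides of 1. They were picked for likeness over these same shares, so their direction adds no support. Their folds are given without intervals. In WT and upf1 XUT0602 was at 0.582-fold and 1.16-fold, XUT1156 at 0.688-fold and 1.05-fold, and XUT0279 at 0.915-fold and 1.87-fold. With 1 merged value per condition the difference between the genotypes was not tested. Both directions were the same under the 6 alternatives tried for this transcript, given below where they left the counting interval.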

How the results depend on the processing

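No paired analysis was possible because the table holds no replicate values, and for the same reason leaving out replicates and the replicate block were not run. Of 44 alternative values of the folds, 37 stayed within the counting interval and 7 left it. For XUT1511, leaving out the ORFs that overlap the LTR, ORF 1 included, gave 1.34-fold for upf1 against WT with CHX. It gave 0.479-fold for CHX in WT, and leaving the 2-micron plasmid out of the totals gave 0.507-fold for the latter. For XUT0567, taking the longest ORFs first gave 0.669-fold for upf1 against WT with CHX and 0.143-fold for CHX in upf1. Leaving out its ORF with most reads gave 0.672-fold and 0.142-fold for the same. The cause was not tested beyond the choice of ORFs these settings make.

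Counts of called ORFs followed the read minimum. For XUT1511 in WT the 2 calls became 5 with at least 5 reads, 1 with at least 20, 19 with at least 1, 1 at a score of 0.4 and 1 without overlapping ORFs. In WT + CHX the 8 became 19 with at least 1 read and 5 without overlapping ORFs. In upf1 the 6 became 3 with at least 20 reads and 21 with at least 1. In upf1 + CHX the 7 became 17 with at least 1 read and 4 without overlapping ORFs. For XUT0567 in WT the 2 became 0 with at least 20 reads, 5 with at least 1 and 1 without overlapping ORFs. In WT + CHX the 2 became 0 with at least 20 reads and 1 without overlapping ORFs. In upf1 the 0 became 1 with at least 5 reads, 7 with at least 1 and 1 at a score of 0.25. In upf1 + CHX the 2 became 1 with at least 20 reads, 5 with at least 1 and 1 without overlapping ORFs. The other 26 alternative counts were within 1.5 times the value given. XUT0567 had 12 reads in WT, which limits every comparison with that condition.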

Other observations

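Over the whole table, 338 listed ORFs in 91 XUTs overlapped an annotated LTR, 7 of them in XUT1511. Among the non-overlapping ones, those of XUT1511 held 82 of 237 reads in WT (34.6%), 364 of 1387 in WT + CHX (26.2%), 141 of 692 in upf1 (20.4%) and 344 of 1407 in upf1 + CHX (24.4%). These sums count ORF 1 of XUT1511, of which only the last 8 nt lie in the LTR. Its 4 non-overlapping ORFs inside the LTR held 73, 301, 122 and 251 reads. Of the LTR ORFs with at least 10 reads, 3 of 7 in WT, 7 of 31 in WT + CHX, 5 of 20 in upf1 and 7 of 31 in upf1 + CHX lay in XUT1511. The latter counts include overlapping ORFs, which can share reads.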
